A study of Saccharomyces cerevisiae Sigma1278b with 62 samples.

Results

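The genes described here belong to the zinc response of budding yeast: the zinc-responsive transcription factor gene ZAP1 (YJL056C) and genes under its control, ZPS1 (YOL154W), ZRT1 (YGL255W), ZRT2 (YLR130C), ADH4 (YGL256W), ZRC1 (YMR243C) and IZH1 (YDR492W). They were taken by systematic open reading frame name, and 6 of the 7 were analysed among 5563 genes, with ZRT1 not analysed here. The group was chosen by the translation efficiency (TE) of ZPS1 in asc1-M1X and asc1Δ cells in glucose, which was known when the genes were put together. Values from those comparisons with WT are therefore a description with no test, and the remaining comparisons are tested.

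Zap1 is an activator that is most active when cells run short of zinc, and it also raises transcription of its own gene. Its targets bring zinc into the cell (the high-affinity transporter Zrt1 and the low-affinity transporter Zrt2) and load it into the vacuole as a reserve (Zrc1). Others are Adh4, an alcohol dehydrogenase made in low zinc, Izh1, a membrane protein of the family related to progestin receptors, and Zps1, a secreted or cell wall protein that resembles fungal zinc metalloproteases.

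The study asked how loss of the ribosomal protein Asc1, the yeast RACK1, and of other ribosomal proteins alters translation. Ribosome footprints (FP) and total RNA were sequenced from 2 cultures per strain. The mutants of the first experiment were asc1-M1X (start codon changed to a stop, so that the protein is lost and the intronic snoRNA SNR24 stays), asc1Δ (the locus deleted, SNR24 included), asc1-D109Y (a ribosome-binding mutant), rpl23bΔ and rpp1aΔ (each lacking a gene for a protein of the large subunit), and they share 1 WT. The ribosome-binding mutant asc1-DE had its own WT in an earlier protocol with polyA tailing, rps0bΔ and rps16bΔ (small subunit) were compared with a deletion collection WT, asc1-M1X and WT were also grown in glycerol, and total RNA of asc1-M1X and WT was prepared again with Ribo-Zero. Cells grew to log phase in rich medium with 2% glucose. Where glycerol (3%) is named they were moved out of glucose and taken hours later, before WT was growing fast again by the study's account, although the labels give log phase for these cultures too. All received cycloheximide before harvest. In the first experiment each mutant culture came from a separately numbered strain, whereas WT, asc1-DE and the collection strains were 1 strain each.

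The 56 libraries held 1719206 to 15323143 reads on genes, with a median of 7168065. The altered genes followed the labels: ASC1 had 66 to 249 FP reads in the 4 libraries of asc1-M1X and asc1Δ, against 30475 and 33792 in WT, and RPL23B, RPP1A, RPS0B and RPS16B had 19 to 112 reads in the libraries of their deletion strains. Levels are given as CPM, the read count of a gene scaled to a common library size by trimmed means of M values (TMM) within an experiment, TE is the FP change relative to the total RNA change, and SE is the standard error of a log2 change. Genes passed the test at an adjusted p of 0.05. CPM is not corrected for gene length, so levels are compared between strains and not between genes. Libraries of a mutant are said not to overlap with those of WT where all lie above or all lie below them. With so few libraries per strain, such separation can also arise in a gene that does not change. The share of all genes that separate was not counted, so separation is a description and not a test.

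In the asc1 nulls ZPS1 had more RNA and fewer footprints. Its total RNA was 31.2 and 30.1 CPM in asc1-M1X cultures and 31.6 and 36.3 CPM in asc1Δ cultures, against 16.9 and 19.7 CPM in WT. FP of ZPS1 was 5.65 and 6.21 CPM in the asc1-M1X cultures and 6.42 and 5.58 CPM in those of asc1Δ, against 9.15 and 10.7 CPM in WT. In both measures the 4 libraries of the nulls lay apart from the 2 WT libraries, above them in RNA and below them in FP. The group was chosen on ZPS1 in these comparisons, so this separation is a description. The log2 change in asc1-M1X was 0.73 (SE 0.14) in RNA, -0.75 (SE 0.18) in FP and -1.48 (SE 0.22) in TE. In asc1Δ it was 0.89 (SE 0.14) in RNA, -0.72 (SE 0.19) in FP and -1.60 (SE 0.23) in TE. The ratio of FP CPM to RNA CPM in a culture was 0.181 and 0.206 in asc1-M1X cultures, 0.203 and 0.154 in asc1Δ cultures, against 0.541 and 0.543 in WT.

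The other members moved less in the nulls, and none had its RNA beyond 0.30 in size on the log2 scale. ZRC1 had 105 and 101 CPM of FP in asc1-M1X and 113 and 108 CPM in asc1Δ, against 134 and 132 CPM in WT. Its log2 TE change was -0.35 (SE 0.09) in asc1-M1X and -0.27 (SE 0.09) in asc1Δ, at total RNA changes of -0.02 and 0.00. The FP change of IZH1 was 0.24 (SE 0.08) in asc1-M1X and 0.32 (SE 0.10) in asc1Δ on the log2 scale, and that of ADH4 was 0.20 (SE 0.14) and 0.30 (SE 0.15). All FP, RNA and TE changes of ADH4, ZAP1 and ZRT2 lay between -0.15 and 0.30 in the nulls.

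**Figure D1:**
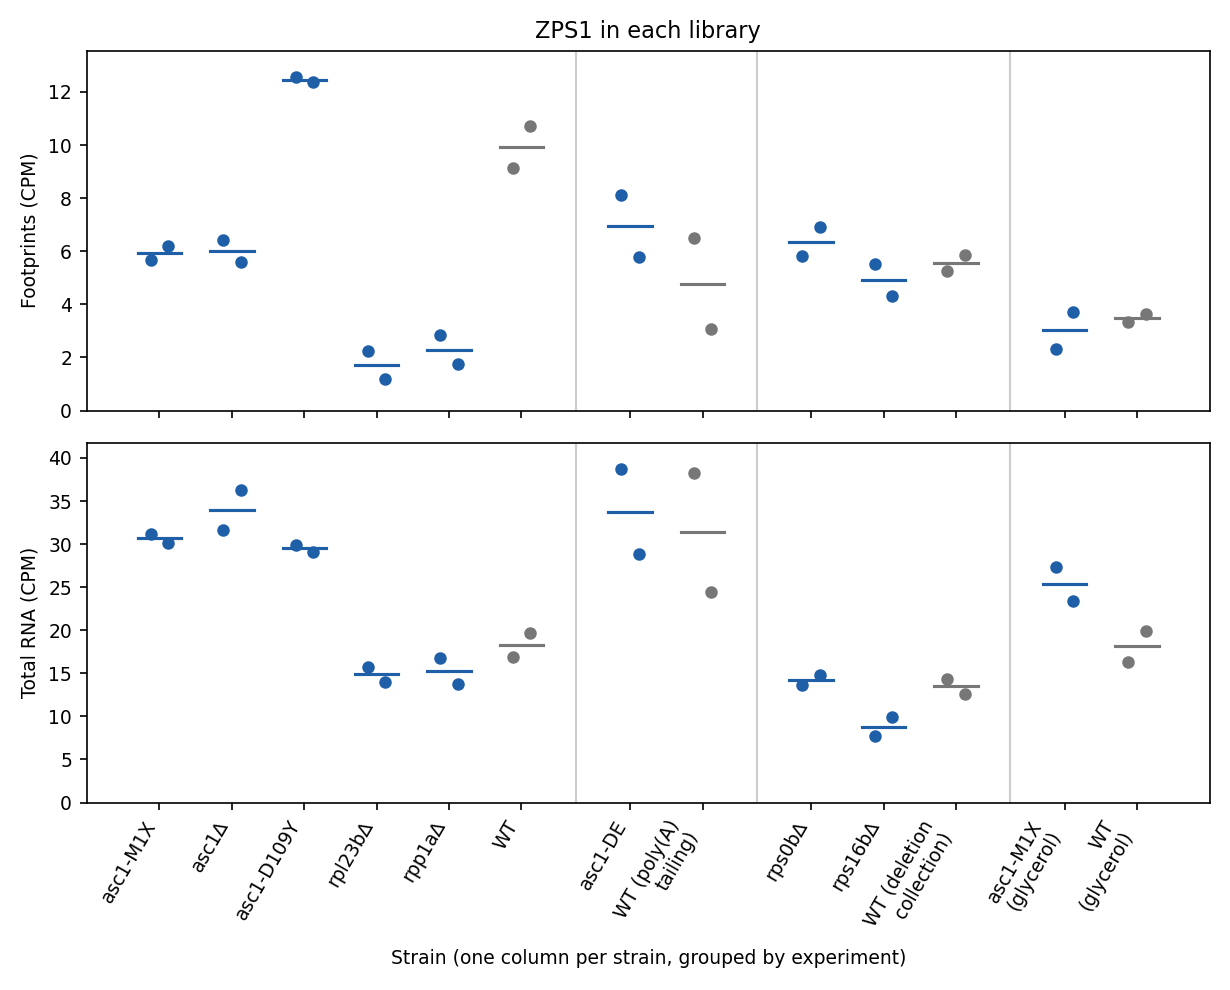
ZPS1 in each library, as scaled CPM of FP (top) and total RNA (bottom) by strain, with each point 1 library and the horizontal bar the mean of the 2. In the first experiment FP lay below WT in asc1-M1X, asc1Δ, rpl23bΔ and rpp1aΔ, and total RNA lay above WT in the 3 ASC1 mutants. Levels are scaled within an experiment, so points of different experiments are not on a common scale.

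ZPS1 footprints were lower in rpl23bΔ and rpp1aΔ than in WT, with total RNA that did not pass the test. FP was 2.24 and 1.19 CPM in rpl23bΔ (25 and 10 reads) and 2.84 and 1.74 CPM in rpp1aΔ (30 and 13 reads), against 9.15 and 10.7 CPM in WT (62 and 87 reads). Every library of either deletion was below both WT libraries. These deletions and asc1-D109Y share the WT libraries with the asc1 nulls, so the WT level that enters the description above enters these tests too.

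In rpl23bΔ the FP change of ZPS1 was -2.47 (SE 0.27) on the log2 scale, 0.180 of the WT level, with an adjusted p of 1.66e-06 (quasi-likelihood test of edgeR, adjusted after Benjamini and Hochberg and named edgeR adjusted p from here on). Its RNA was 15.8 and 14.0 CPM in rpl23bΔ, against 16.9 and 19.7 CPM in WT, with a log2 change of -0.30 (SE 0.19, edgeR adjusted p = 0.259). TE fell by 2.17 on the log2 scale (SE 0.34, edgeR adjusted p = 0.0051). The FP/RNA ratio of the 2 cultures was 0.142 and 0.0851 in rpl23bΔ, against 0.541 and 0.543 in WT. The FP and TE calls of ZPS1 in rpl23bΔ held in each of the 11 alternatives run. All of these used WT libraries of the comparisons that chose the group, so they do not check that WT level.

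In rpp1aΔ the FP change of ZPS1 was -2.06 (SE 0.27, edgeR adjusted p = 0.000738). Its RNA was 16.8 and 13.7 CPM in rpp1aΔ, just below the WT libraries at 16.9 and 19.7 CPM, and the log2 change of -0.29 (SE 0.17) did not pass (edgeR adjusted p = 0.245). TE fell by 1.78 (SE 0.32, edgeR adjusted p = 0.0188). This TE call is less secure than that in rpl23bΔ, since it was lost with DESeq2, without rpp1aΔ replicate 2 (edgeR adjusted p = 0.0622) and without WT replicate 1 (0.175) or WT replicate 2 (0.214), while the log2 change stayed between -2.08 and -1.67.

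Of the other members in these strains, ADH4 and IZH1 fell in FP in both deletions with no fall in RNA. IZH1 had 51.0 and 47.0 CPM of FP in rpl23bΔ and 54.9 and 53.9 CPM in rpp1aΔ, against 75.4 and 69.8 CPM in WT, with no overlap. Its FP fell by 0.56 in rpl23bΔ (SE 0.09, edgeR adjusted p = 0.000132) and by 0.41 in rpp1aΔ (SE 0.08, edgeR adjusted p = 0.00496). IZH1 RNA was 162 and 149 CPM in rpl23bΔ and 157 and 130 CPM in rpp1aΔ, against 144 and 119 CPM in WT, and passed in neither strain. TE of IZH1 fell by 0.81 in rpl23bΔ (SE 0.15, edgeR adjusted p = 0.0148), a call lost without WT replicate 2 (0.131). In rpp1aΔ the TE change was -0.54 (SE 0.16, edgeR adjusted p = 0.0836), which passed with the culture as a block (-0.55, edgeR adjusted p = 0.000441).

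ADH4 had 10.5 and 9.78 CPM of FP in rpl23bΔ and 9.95 and 9.52 CPM in rpp1aΔ, against 16.1 and 13.8 CPM in WT, again without overlap. The fall was 0.55 in rpl23bΔ (SE 0.16, edgeR adjusted p = 0.0106) and 0.61 in rpp1aΔ (SE 0.16, edgeR adjusted p = 0.0173). Both calls were lost with DESeq2 and without WT replicate 1, and that in rpl23bΔ also without rpl23bΔ replicate 2 and with library size alone. ADH4 RNA was 133 and 115 CPM in rpl23bΔ and 143 and 121 CPM in rpp1aΔ, against 123 and 105 CPM in WT, so that the groups overlapped without regard to replicate number. Its TE change of -0.67 (SE 0.20) in rpl23bΔ and -0.82 (SE 0.20) in rpp1aΔ did not pass (edgeR adjusted p = 0.0954 and 0.0546). With the culture as a block both passed, at -0.68 in rpl23bΔ (edgeR adjusted p = 0.0295) and -0.84 in rpp1aΔ (0.000457), in fits in which 239 and 1010 genes passed in TE, against 124 and 189 without the block.

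ZRC1, the vacuolar zinc transporter, fell slightly in FP in both deletions and its TE did not pass. It had 113 and 105 CPM of FP in rpl23bΔ and 114 and 99.3 CPM in rpp1aΔ, against 134 and 132 CPM in WT, with no overlap. The fall was 0.29 in rpl23bΔ (SE 0.08, edgeR adjusted p = 0.00548) and 0.32 in rpp1aΔ (SE 0.08, edgeR adjusted p = 0.0166). The call was lost with library size alone in both deletions, and in rpp1aΔ also without rpp1aΔ replicate 2 and without WT replicate 1. On the log2 scale total RNA of ZRC1 changed by -0.21 in rpl23bΔ and -0.15 in rpp1aΔ, and its TE by -0.08 and -0.17.

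ZAP1 and ZRT2 kept their footprints within 0.19 of WT on the log2 scale in both deletions. ZAP1 had 9.78 and 11.0 CPM of FP in rpl23bΔ and 11.8 and 11.1 CPM in rpp1aΔ, against 10.2 and 10.6 CPM in WT. ZAP1 RNA was 44.7 and 38.2 CPM in rpl23bΔ, against 55.4 and 53.3 CPM in WT, a fall of 0.39 (SE 0.12, edgeR adjusted p = 0.0475) that was lost in 5 of 11 alternatives, and 48.0 and 51.5 CPM in rpp1aΔ (log2 change -0.12, edgeR adjusted p = 0.349). ZRT2 had 16.1 and 16.7 CPM of FP in rpl23bΔ and 13.3 and 16.8 CPM in rpp1aΔ, against 17.3 and 16.6 CPM in WT.

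Counted over the 6 members in rpl23bΔ, 4 fell in FP, 1 in RNA and 2 in TE, and none rose, where 24.4% of 4891 genes fell in FP, 13% in RNA and 1.88% in TE. In rpp1aΔ 4 members fell in FP, none in RNA and 1 in TE, and none rose, in the fits without a replicate block, where 19.8% of 4890 genes fell in FP, 15.4% in RNA and 2.49% in TE. The median log2 FP change of the members was -0.42 in rpl23bΔ and -0.36 in rpp1aΔ, beside 0.01 over all genes in each. These counts and medians include ZPS1, whose level in the same WT libraries entered the choice of the group. ZPS1 is among the members that fell in FP and TE in both deletions, and is the only TE fall in rpp1aΔ.

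**Figure D2:**
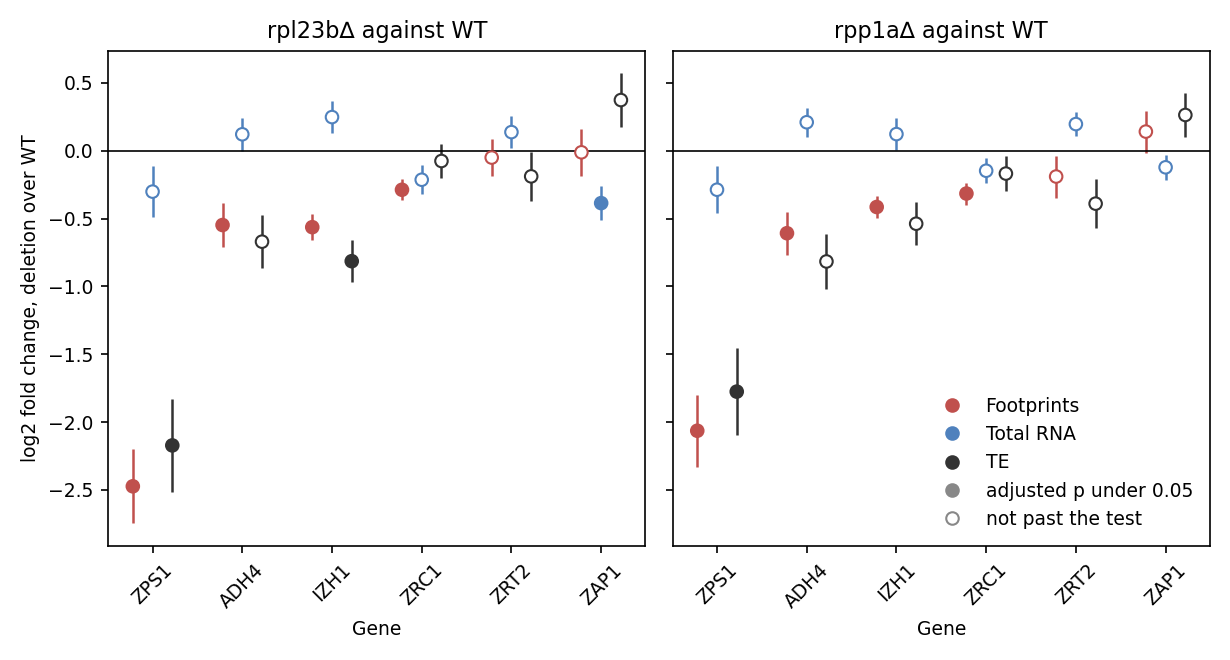
Log2 change in FP, total RNA and TE of the 6 members in rpl23bΔ and rpp1aΔ against the shared WT, with bars of 1 SE. Filled points passed the edgeR test at an adjusted p of 0.05 and open points did not. ZPS1 has the lowest FP and TE value in both strains, and its RNA lies at -0.30 and -0.29.

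None of the members passed in either ribosome-binding mutant of Asc1. In asc1-D109Y 0 of 18 tests passed with edgeR and 0 with DESeq2, 2 had an unadjusted p under 0.05, and 0.76% of 4871 genes passed in FP, 0.37% in RNA and 0% in TE. ZPS1 RNA was 30.0 and 29.1 CPM in asc1-D109Y, against 16.9 and 19.7 CPM in WT, so that both mutant libraries were above both WT libraries. The log2 change was 0.68 (SE 0.14, edgeR adjusted p = 0.123), and it passed with the replicate number as a block, a fit in which 2 member tests passed, and without WT replicate 2. ZPS1 FP was 12.5 and 12.4 CPM in asc1-D109Y, against 9.15 and 10.7 CPM in WT, with a log2 change of 0.32 (SE 0.16, edgeR adjusted p = 0.633). The TE change of -0.36 (SE 0.20) did not pass, at FP/RNA ratios of 0.419 and 0.426 in asc1-D109Y. FP of ZPS1 was above WT in asc1-D109Y and below WT in the asc1 nulls, and the difference between these effects was not tested.

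In asc1-DE 0 of 18 tests passed with edgeR, 0 with DESeq2 and 0 had an unadjusted p under 0.05, where 0.0213% of 4698 genes passed in FP and 0% in RNA and in TE. ZPS1 had 8.13 and 5.77 CPM of FP in asc1-DE, against 6.49 and 3.05 CPM in its own WT, and 38.7 and 28.9 CPM of RNA, against 38.3 and 24.5 CPM in WT, so both measures overlapped. Its TE change was 0.38 (SE 0.49), with an SE above the 0.20 to 0.34 of ZPS1 TE in the first experiment. ADH4, IZH1, ZAP1, ZRC1 and ZRT2 changed by -0.22 to 0.15 in FP, RNA and TE in asc1-DE.

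In the small subunit deletions no test of ZPS1 passed with all libraries. It had 5.81 and 6.91 CPM of FP in rps0bΔ and 5.53 and 4.33 CPM in rps16bΔ, against 5.26 and 5.86 CPM in the collection WT. Its RNA was 13.7 and 14.8 CPM in rps0bΔ and 7.70 and 9.88 CPM in rps16bΔ, against 14.4 and 12.6 CPM in WT. TE of ZPS1 changed by 0.11 (SE 0.26, edgeR adjusted p = 0.859) in rps0bΔ and 0.42 (SE 0.30, edgeR adjusted p = 0.602) in rps16bΔ. The lower RNA of ZPS1 in rps16bΔ was outside the WT range, but its log2 change of -0.60 (SE 0.23) did not pass (edgeR adjusted p = 0.434), except without rps16bΔ replicate 2. The difference in ZPS1 between the large and small subunit deletions was not tested, and each set has its own WT.

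ZRT2, the low-affinity zinc transporter, was the member that rose in rps0bΔ. Its FP was 12.2 and 15.5 CPM in rps0bΔ, against 8.02 and 10.4 CPM in WT, and its RNA was 92.3 and 102 CPM, against 83.7 and 74.4 CPM, with no overlap in either. Its log2 change was 0.59 in FP (SE 0.19, edgeR adjusted p = 0.0445) and 0.30 in RNA (SE 0.09, edgeR adjusted p = 0.00923). Both were lost with DESeq2 and without rps0bΔ replicate 2, the FP call also without 1 WT library and the RNA call without the other. These 2 were the member tests that passed of 18 in rps0bΔ, where 8.22% of 4832 genes rose in FP, 12.1% in RNA and 0.352% in TE. In rps16bΔ ZRT2 had 131 and 108 CPM of RNA, against 83.7 and 74.4 CPM in WT, a change of 0.60 (SE 0.14, edgeR adjusted p = 0.144), and FP of 13.4 and 11.4 CPM, against 8.02 and 10.4 CPM (0.43, SE 0.17, edgeR adjusted p = 0.134). The RNA value passed without either rps16bΔ replicate and the FP value without 1 WT library. In rps16bΔ 0 of 18 member tests passed with edgeR and 0 with DESeq2, 3 had an unadjusted p under 0.05, and 8.09% of all genes passed in FP, 0.414% in RNA and 0.145% in TE.

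In glycerol, where yeast must respire, ZRT2, IZH1 and ZRC1 had more footprints in asc1-M1X than in WT. ZRT2 had 18.0 and 15.0 CPM of FP in asc1-M1X, against 7.31 and 6.59 CPM in WT, which is 2.37 times the WT level (log2 change 1.24, SE 0.19, edgeR adjusted p = 0.00251). Both mutant libraries were above both WT libraries. Its RNA was 134 and 149 CPM in asc1-M1X, against 105 and 137 CPM in WT, with overlap and a log2 change of 0.22 (SE 0.15, edgeR adjusted p = 0.344). The TE change of ZRT2 was 1.02 (SE 0.25, edgeR adjusted p = 0.18), and with the culture as a block it was 1.03 (SE 0.21, edgeR adjusted p = 6.09e-05), in a fit in which 535 genes passed in TE, against 11 without the block.

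IZH1 rose in RNA in glycerol. It had 122 and 122 CPM of RNA in asc1-M1X, against 76.4 and 76.1 CPM in WT, a log2 change of 0.68 (SE 0.12, edgeR adjusted p = 0.00454) that passed in each of 10 alternatives. IZH1 FP was 93.0 and 90.2 CPM in asc1-M1X, against 67.5 and 74.4 CPM in WT, a log2 change of 0.37 (SE 0.10, edgeR adjusted p = 0.0232). ZRC1 FP was 75.7 and 67.5 CPM in asc1-M1X, against 55.4 and 56.5 CPM in WT, a log2 change of 0.35 (SE 0.11, edgeR adjusted p = 0.0326). Neither FP pair overlapped, but the IZH1 call was lost with DESeq2 and without either asc1-M1X replicate or WT replicate 1, and the ZRC1 call with DESeq2 and without any 1 of the 4 cultures. ADH4 FP overlapped between asc1-M1X (5.91 and 9.24 CPM) and WT (6.19 and 9.93 CPM), and ZAP1 RNA was 28.3 and 29.1 CPM in asc1-M1X, against 21.2 and 21.1 CPM in WT (log2 change 0.44, SE 0.17, edgeR adjusted p = 0.0982). Of the 5 members with enough reads, 3 rose in FP, 1 in RNA and none in TE, where 18.7% of 5083 genes rose in FP, 8.95% in RNA and 0.138% in TE.

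ZPS1 did not reach the minimum of 128 FP reads in glycerol. It had 15 and 37 FP reads in asc1-M1X, against 21 and 36 in WT, which is 2.33 and 3.72 CPM, against 3.34 and 3.65 CPM. Its RNA was 27.3 and 23.4 CPM in asc1-M1X, against 16.3 and 20.0 CPM in WT, with no overlap. Without the minimum its log2 change was -0.16 in FP, 0.47 in RNA (edgeR adjusted p = 0.115) and -0.64 in TE (edgeR adjusted p = 0.499). The depth could not show whether ZPS1 footprints differed between the strains in glycerol. The same strain difference in glucose is described above and was not a test.

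Whether the asc1-M1X effect differed between the media was tested in 1 fit over both experiments, in which medium and experiment cannot be told apart and the glucose side is a comparison that chose the group. FP of ZRT2 on a common scale was 16.5 and 13.8 CPM in asc1-M1X and 7.12 and 6.45 CPM in WT in glycerol, and 18.7 and 14.0 CPM in asc1-M1X and 17.8 and 17.2 CPM in WT in glucose. The log2 effect of asc1-M1X was higher in glycerol than in glucose by 1.25 (SE 0.26, edgeR adjusted p = 0.00742). FP of ZRC1 was 69.1 and 62.3 CPM in asc1-M1X and 54.0 and 55.4 CPM in WT in glycerol, and 108.9 and 104 CPM in asc1-M1X and 138 and 137 CPM in WT in glucose, so that the mutant was above WT in glycerol and below WT in glucose. That difference was 0.63 (SE 0.11, edgeR adjusted p = 0.00393).

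Both of these calls held in each of 14 alternatives, and they were the 2 of 18 member tests that passed, where 7.13% of 5201 genes had a higher effect in glycerol in FP, 3.92% in RNA and 0.0385% in TE. The median difference over all genes in FP was -0.12. ZRT2 TE differed by 0.99 (edgeR adjusted p = 0.246), and by 1.01 with the culture as a block (edgeR adjusted p = 0.0287). For ZPS1 the difference was 0.50 in FP, -0.30 in RNA and 0.80 in TE, none of which passed.

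**Figure D3:**
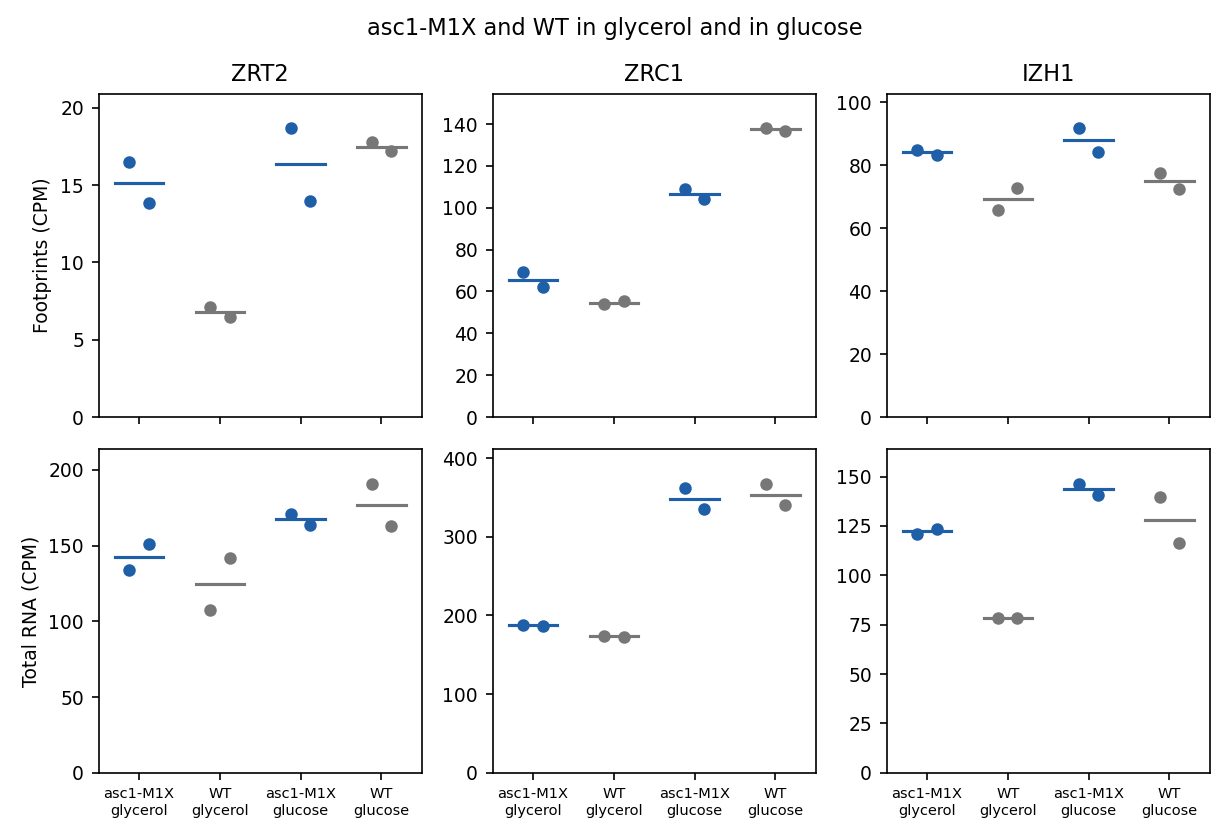
FP (top row) and total RNA (bottom row) of ZRT2, ZRC1 and IZH1 in asc1-M1X and WT, in glycerol and in glucose, as CPM scaled over both experiments, with each point 1 library and bars at the mean of 2. ZRT2 and ZRC1 footprints of asc1-M1X lie above WT in glycerol and not in glucose.

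Between the media themselves, footprints of ZPS1, ZRT2, ZRC1 and ADH4 were lower in WT in glycerol than in WT in glucose. ZPS1 had 3.25 and 3.57 CPM of FP in glycerol, against 9.41 and 11.1 CPM in glucose (log2 change -1.58), at an RNA change of 0.07. These glucose WT libraries are also those of the asc1 null comparisons. The WT level of ZPS1 that entered the choice of the group therefore enters its FP and TE changes between the media. ZRT2 FP changed by -1.37, ZRC1 by -1.33 and ADH4 by -0.91, and RNA of these 3 fell by 0.50, 1.03 and 1.33. ZAP1 went the other way in TE, since its FP was 13.2 and 12.4 CPM in glycerol, against 10.5 and 11.0 CPM in glucose, and its RNA was 21.8 and 21.8 CPM, against 53.8 and 51.9 CPM.

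TE rose for ZAP1 (1.52) and IZH1 (0.59) and fell for ZPS1 (-1.65), ZRT2 (-0.88) and ZRC1 (-0.30), and that of ADH4 (0.42) did not pass, relative to a median of 0.17 over all genes. The ZRC1 call was lost with library size alone and without any 1 of the 4 WT cultures, and the ZRT2 call without glycerol WT replicate 2. Of 18 member tests 14 passed with edgeR and 14 with DESeq2, where 78.5% of 5201 genes passed in FP, 86.5% in RNA and 75.4% in TE, so the share among the members is near that of all genes. The libraries of the 2 media were made in separate experiments, and the WT values of ZAP1 and ZPS1 also differed between experiments in glucose, where each table was scaled on its own. ZAP1 RNA was 55.4 and 53.3 CPM in the first WT, 22.5 and 21.6 CPM in the polyA-tailing WT, 13.4 and 16.5 CPM in the collection WT and 41.6 and 42.3 CPM with Ribo-Zero, while its FP was 9.36 to 11.5 CPM in the 3 experiments with footprints. The FP/RNA ratio of ZPS1 in WT was 0.169 and 0.125 with polyA tailing and 0.205 and 0.183 in glycerol, against 0.541 and 0.543 in the first experiment, and the ratio of mean FP to mean RNA in the collection WT was 0.412. The part of library preparation in the TE of ZAP1 and ZPS1 was not tested.

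The Ribo-Zero libraries measure the RNA of asc1-M1X and WT in glucose with no selection for polyA tails. The titles of the 2 mutant libraries name an asc1 null, but their strain numbers and column names are those of asc1-M1X, and they held 1401 and 1508 CPM of ASC1, against 4062 and 4444 CPM in WT. ZPS1 had 16.3 and 18.5 CPM in asc1-M1X, against 14.5 and 11.5 CPM in WT. These libraries did not overlap, but the log2 change of 0.40 (SE 0.23) did not pass (edgeR adjusted p = 0.15). Set against the mean FP of the first experiment, the FP/RNA ratio of ZPS1 was 0.341 in asc1-M1X and 0.767 in WT, a description from separate preparations. The footprints in this ratio are those of a comparison that chose the group. IZH1 rose by 0.29 (SE 0.10, edgeR adjusted p = 0.00884), with 115 and 96.3 CPM in asc1-M1X, against 91.2 and 78.6 CPM in WT. ZRT2 fell by 0.30 (SE 0.09, edgeR adjusted p = 0.00266), with 99.98 and 104 CPM in asc1-M1X, against 126 and 126 CPM in WT. These were 2 of 6 members, where 37.8% of 4988 genes passed, and neither passed with DESeq2 or without asc1-M1X replicate 1, nor IZH1 without WT replicate 2. In the polyA-selected glucose libraries, scaled over both media, ZRT2 RNA overlapped, at 171 and 164 CPM in asc1-M1X, against 191 and 163 CPM in WT. IZH1 RNA there was 146 and 141 CPM in asc1-M1X, against 140 and 116 CPM in WT. Both are a description.

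Other genes of the zinc response did not follow 1 direction. In rpl23bΔ 7 of 17 further Zap1 targets fell in FP and 5 rose, in rpp1aΔ 7 fell and 2 rose, and in neither did any of the 17 pass in TE. Over all genes 24.4% fell and 24.8% rose in FP in rpl23bΔ, and 19.8% fell and 20.8% rose in rpp1aΔ. ICY2, a further Zap1 target, fell in RNA by 1.61 in rpl23bΔ (edgeR adjusted p = 5.57e-05) and to 0.309 of WT in rpp1aΔ (edgeR adjusted p = 5.65e-05). MCD4, which acts in GPI anchor synthesis, fell in RNA by 0.77 in rpl23bΔ (edgeR adjusted p = 0.00312).

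Among the alcohol dehydrogenases other than ADH4, ADH5 RNA fell in 3 deletions of other ribosomal protein genes and rose in ASC1 mutants. It fell by 2.61 in rpl23bΔ (edgeR adjusted p = 8.45e-07) and by 2.54 in rpp1aΔ (edgeR adjusted p = 3.83e-06), and by 0.69 in rps0bΔ (edgeR adjusted p = 4.61e-06), and rose by 0.45 in asc1-D109Y (edgeR adjusted p = 0.0421), by 0.83 in asc1-M1X in glycerol (edgeR adjusted p = 0.00684) and by 0.38 in the Ribo-Zero libraries (edgeR adjusted p = 7.91e-06). Its RNA change was 0.44 in asc1-M1X and 0.49 in asc1Δ in glucose, and in asc1-DE and rps16bΔ it did not pass. ADH3, the mitochondrial enzyme, fell in RNA by 0.82 in rpl23bΔ and 0.73 in rpp1aΔ, and ADH1, the main fermentative enzyme, by 0.77 in rpp1aΔ and 0.61 in rps0bΔ. Of these alcohol dehydrogenases 5 were tested in rpl23bΔ, where 3 fell in RNA and 1 rose, beside 13% and 11.8% of all genes. In rpp1aΔ 3 of 6 fell and 1 rose, beside 15.4% and 12.6% of all genes, and in rps0bΔ 2 of 6 fell and 0 rose. In rps0bΔ TSA1, a peroxiredoxin, fell in RNA by 0.64 and the metal transporter gene FET4 rose by 0.62, and over the 17 Zap1 targets 1 rose and 6 fell in RNA, where 12.1% of all genes rose and 13.3% fell.

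In glycerol 4 of 18 further Zap1 targets rose in FP in asc1-M1X and 1 fell, and in RNA 4 rose and none fell, while none passed in TE. Over all genes 18.7% rose and 22.4% fell in FP, and 8.95% rose and 8.85% fell in RNA. RNA of URA10, a minor orotate phosphoribosyltransferase, rose by 1.17 in glycerol (edgeR adjusted p = 0.00112) and by 1.25 in the Ribo-Zero libraries (edgeR adjusted p = 1.35e-06). In the Ribo-Zero libraries CKI1, a choline kinase, rose by 0.77, DPP1, a lipid phosphatase, by 0.57 and the vacuolar metal transporter gene COT1 by 0.49. RNA of ADH1 rose by 1.59, ADH2 fell by 1.39 and ADH6 by 1.17 in asc1-M1X in glycerol. ADH1 and ADH2 are close in sequence, and only reads that map to 1 place were counted, so their values are uncertain. Relative to the effect in glucose, that in glycerol was higher for ADH1 (2.11) and FET4 (2.04) and lower for ADH6 (-1.29) and IZH4 (-1.17) in RNA. In WT the RNA change in glycerol against glucose was 11.72 for ADH2, the respiratory enzyme repressed by glucose, -4.29 for FET4, 3.09 for URA10 and 2.96 for IZH4, a relative of IZH1.

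The total RNA of ZPS1 over the 12 libraries of the first experiment was most like that of NIT1, SDT1, RIM11, LAP3 and IMA2, with Pearson's r of 0.964, 0.961, 0.956, 0.954 and 0.953 across 5306 genes compared. The libraries include the asc1 nulls, in which ZPS1 RNA was high, and share depth and preparation, so this is a description. The members were less like it, with r of 0.66 for ZRC1, 0.51 for ZAP1, 0.21 for IZH1, -0.22 for ADH4 and -0.55 for ZRT2. 

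**Figure D4:**
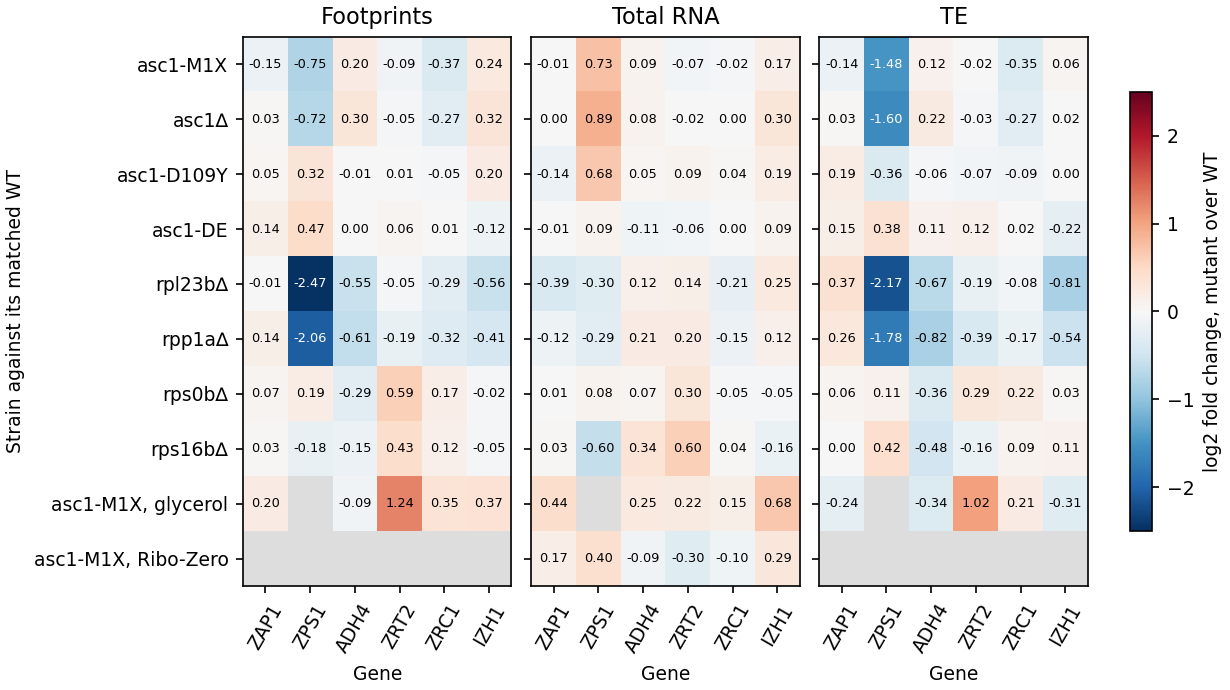
Log2 change of each member in FP, total RNA and TE in each mutant over its matched WT, with the value printed in each cell on a color scale from lower (blue) to higher (red) in the mutant, and gray where a gene was not tested or the library type was not made. ZPS1 is lowest in TE in rpl23bΔ, rpp1aΔ and the asc1 nulls, and ZRT2 is highest in FP in asc1-M1X in glycerol.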

How the data were processed

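Per the labels and the methods, TopHat (version not given in the sources used here) and a Sigma1278b genome were the authors' means of alignment, and they kept uniquely mapped reads and deposited counts of reads per gene without the first codons of each. They pooled 6 re-prepared FP libraries into the first replicate of a strain, so 62 samples gave 56 libraries. Here the deposited counts were fitted with edgeR 4.0.16 in R 4.3.3 (glmQLFit, glmQLFTest; TMM within library type), with TE as the interaction of library type and strain, on genes with at least 128 FP and 128 RNA reads in a comparison. Benjamini-Hochberg adjustment was over all genes tested, at 0.05, and SE is the log2 change over the root of F. The fitting code was run in its main setting on simulated counts for rpl23bΔ, asc1-M1X in glycerol and the Ribo-Zero libraries. The alternatives and the fits over both media were not simulated. DESeq2 1.42.0 (Wald test), other scalings and filters, a replicate block and leaving out each replicate were alternatives. The deposited fold change tables hold the authors' own comparisons and were not used.

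FP and RNA libraries of 1 culture came from 1 extract, per the methods. The main TE tests had no term for the culture, and the culture as a block was an alternative. The r between FP and RNA in the replicate differences of a strain was 0.026 to 0.534 over 12 strain groups, 10 over 0.1. Mutants and WT share a number, and in the first experiment the re-prepared FP libraries all belong to the first replicate. The members and lists were chosen with earlier results of these data known. All 7 members were to be named in each comparison, and of the lists at most 4 genes with the largest RNA change past the threshold. ADH5, named by this rule in some comparisons, is also given in others where the rule did not name it. Sequences are not reported here. Of the listed genes, 42 of 42 names matched RefSeq's S288C R64 table, in which no member overlaps another gene. Counts with 2 libraries a group limit precision. SEs rest on the variation between these libraries as fitted by edgeR, which shares information across genes, and not on the libraries of 1 gene alone.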

Additional observations from a re-analysis of the deposited data

Results flagged for a closer look

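The footprint effect of asc1-M1X against WT differed between glycerol and glucose for ZRT2 and ZRC1, by a test of the difference itself. For ZRT2 the effect was 1.25 higher on the log2 scale in glycerol (SE 0.26, edgeR adjusted p = 0.00742). For ZRC1 it was 0.63 higher (SE 0.11, edgeR adjusted p = 0.00393), with both asc1-M1X libraries above both WT libraries in glycerol and both below in glucose. The media were run as separate experiments, so medium and experiment cannot be told apart. The glucose side is a comparison that chose the group, and its values alone are a description with no test.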

How the results depend on the processing

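No called member turned its sign under the alternatives run. There 663 member values stayed the same, 47 lost a call, 29 gained one and 6 values with no test moved beyond their SE. Those that stayed the same include values past the threshold in neither fit and, where there was no test, values that moved by less than their SE. The number of member tests that passed moved by over 1.5 times in these fits. The replicate block gave 2 in asc1-D109Y in place of 0, and 10 in rpp1aΔ in place of 5. With it ADH4 RNA (0.21, edgeR adjusted p = 0.00598) and ZRT2 RNA (0.20, 0.00517) rose and ZRC1 RNA (-0.15, 0.0303) fell in rpp1aΔ, and IZH1 RNA (0.25, 0.0345) rose and ZRC1 RNA (-0.22, 0.044) fell in rpl23bΔ. By the labels same-numbered mutant and WT cultures share a number. In the first experiment FP of the first replicate also included a re-prepared library in every strain. The r between mutant and WT in their replicate differences was 0.014 to 0.694 over 15 pairs, 14 over 0.1. Over all genes the block moved the TE calls to 4 in asc1-D109Y (0 without it), 239 in rpl23bΔ (124), 1010 in rpp1aΔ (189), 535 in asc1-M1X in glycerol (11) and 290 for the difference between media (24), and fitting all strains of the first experiment together gave 481 in rpl23bΔ and 313 in rpp1aΔ. DESeq2 gave 0 in rps0bΔ in place of 2, 2 in asc1-M1X in glycerol in place of 4 and 0 with Ribo-Zero in place of 2, and fitting all collection strains together gave 1 in rps0bΔ. Leaving out 1 replicate gave 0 to 1 in asc1-D109Y (0 with all), 2 to 6 in rpp1aΔ (5), 0 to 2 in rps0bΔ (2), 0 to 3 in rps16bΔ (0), 2 to 3 in asc1-M1X in glycerol (4) and 0 to 2 with Ribo-Zero (2); the lone library left in a group is then assumed to vary like the others. No paired analysis was possible for rps0bΔ and rps16bΔ because the numbered names of their WT columns are also those of the WT of the first experiment, so these columns were taken as the group only. In the comparisons that chose the group, ZPS1 TE was -1.58 to -1.39 in asc1-M1X and -1.81 to -1.41 in asc1Δ over the alternatives, as a description. Library size alone in place of TMM moved the median gene by 0.105 to 0.183 in FP and RNA of the asc1 nulls, rpl23bΔ, rpp1aΔ and asc1-M1X in glycerol, and turned the split over all genes in FP to 2106 up and 676 down in rpl23bΔ (1214 and 1194 with TMM) and to 1846 up and 579 down in rpp1aΔ (1019 and 967). The cause of these shifts was not tested. Depth limits ZPS1, with 10 to 87 FP reads a library in rpl23bΔ, rpp1aΔ and WT.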
